A study of Mus musculus with 12 samples.

Results

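This report follows 9 genes of pigment cells through the day 10 wound: Tyr, Tyrp1 and Dct, which encode the enzymes that make melanin, Pmel and Mlana, which encode proteins of the melanosome, Slc45a2 and Oca2, which encode melanosomal transporters, Mc1r, which encodes the receptor for melanocortin, and Mitf, which encodes the master transcription factor of the lineage. The 9 genes were taken by name as a set covering melanin synthesis and melanocyte identity. All 9 were found among the 54232 genes of the count tables, and 7 of them were among the 18618 genes with enough counts to be tested. Oca2 and Mc1r were too low.

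Messenger RNA had been sequenced from 12 dorsal wounds of male C57BLKS/J mice with the Lepr (db/db) genotype, a mutation of the leptin receptor that causes obesity and diabetes. Per the labels the mice were 12.5 weeks old. Each wound was a 6 mm punch through the full thickness of the skin, sampled on day 10. All 3 groups therefore carry the same mutation, and no library from mice without it or from unwounded skin was analysed here. TD wounds had the film dressing Tegaderm and nothing else (5 libraries), Strain wounds had a patch that imposes about 30% strain (4 libraries), and No Strain wounds had a patch that imposes none (3 libraries). The labels do not say whether wounds came from separate mice, so the p-values measure only the spread between these samples.

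In mouse skin, pigment is made by melanocytes, which sit mostly in the hair follicle and pass melanin to the growing hair shaft. They make pigment during the growth phase of the hair cycle, and their stem cells rest in the follicle bulge between cycles. MITF switches on Tyr, Tyrp1, Dct, Pmel, Mlana and Slc45a2 by binding short motifs built on CATGTG in their regulatory regions. Several genes of this set therefore serve as a readout of pigment cells in a bulk tissue.

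Reference promoters of the enzyme genes are shown because the text below compares how these genes moved, and the motif was found in those of Dct and Tyr but not in that of Tyrp1. They are the stretches just upstream of the annotated start in the RefSeq table for GRCm38.p6, written 5′ to 3′ along the gene, with CATGTG or its reverse complement CACATG in capitals. They are reference sequence and were not read from these mice. Dct lies at chr14:118052247-118052496 on the minus strand, Tyr at chr7:87493513-87493762 on the minus strand, and Tyrp1 at chr4:80833963-80834122 on the plus strand.
Dct: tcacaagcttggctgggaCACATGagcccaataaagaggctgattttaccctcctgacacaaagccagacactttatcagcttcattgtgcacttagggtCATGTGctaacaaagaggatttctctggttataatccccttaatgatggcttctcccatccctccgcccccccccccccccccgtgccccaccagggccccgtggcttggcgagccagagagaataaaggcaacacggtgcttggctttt
Tyr: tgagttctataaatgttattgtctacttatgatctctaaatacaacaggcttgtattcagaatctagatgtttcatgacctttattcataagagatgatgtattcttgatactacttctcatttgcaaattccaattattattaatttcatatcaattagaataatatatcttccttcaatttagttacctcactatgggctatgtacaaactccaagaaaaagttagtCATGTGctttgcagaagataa
Tyrp1: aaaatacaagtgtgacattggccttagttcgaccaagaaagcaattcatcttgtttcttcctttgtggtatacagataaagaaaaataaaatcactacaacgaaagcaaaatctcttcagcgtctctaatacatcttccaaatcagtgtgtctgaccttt
Both strands were searched. Dct had matches that began 150 and 232 bases upstream of the start, and Tyr had 1 that began 21 bases upstream. The Tyrp1 window was shorter, 160 bases in place of 250, and held none, which says only that these letters are not in this window. Of 32851 promoter windows in the table, 12.3% held CATGTG on either strand and 3.25% held the longer TCATGTG, which contains it. The matches in Dct and Tyr were all of this longer form. Promoters of 6 of the 9 genes were in the table, and Mc1r and Oca2 also had matches, while the 3 windows of Mitf had none. A match is a description of the sequence and not a measured binding site.

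Libraries held between 20354677 and 25059371 counts, so 3 counts correspond to at most 0.147 CPM. CPM is the usual depth-scaled count, here after TMM scaling, which evens out differences in library composition. The sign ± gives the SD over libraries. In GENCODE M21 on GRCm38 all 9 genes are protein coding. Tyr lies at chr7:87424771-87493512 and Dct at chr14:118012790-118052244, both on the minus strand. On the plus strand lie Tyrp1 at chr4:80834123-80851719, Pmel at chr10:128704195-128720238, Mlana at chr19:29697824-29708634 and Mitf at chr6:97807052-98021349. So do Slc45a2 at chr15:11000721-11029233, Oca2 at chr7:56239760-56536518 and Mc1r at chr8:123407107-123410744. Counts cover the exons of each gene. Exons of Tyr, Tyrp1, Dct, Mlana, Mitf, Slc45a2 and Oca2 overlapped no other annotated gene. Pmel shared 139 exon bases with Cdk2 and Dgka on the opposite strand and Mc1r shared 653 with Gm38092, so a few of their reads cannot be told apart from those genes' reads if counting ignored strand.

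Compared per kilobase of exon, Mitf was the most abundant of the 9 genes, with 6.49 ± 0.707 CPM per kb (SD, n = 12). Pmel at 2.56 ± 1.88, Mlana at 2.24 ± 1.09, Tyrp1 at 1.96 ± 2.19 and Dct at 1.70 ± 1.50 CPM per kb (SD, n = 12 each) followed. Their SDs overlap, but they come from the same libraries and do not compare the genes within a library. Pmel, for example, was above Dct in every library. Tyr and Slc45a2 were far lower, at 0.156 ± 0.203 and 0.127 ± 0.146 CPM per kb. Mc1r at 0.0438 ± 0.0471 and Oca2 at 0.0399 ± 0.0560 CPM per kb were near the limit of detection. Behind the large SDs were mainly Strain replicates 1 and 2, the highest libraries in Dct, Pmel, Tyr, Tyrp1 and Mlana. The order also differed by group. In TD wounds Mlana (1.45 ± 0.330 CPM per kb, SD, n = 5) and Pmel (1.36 ± 0.284) stood above Dct (0.826 ± 0.201) and Tyrp1 (0.674 ± 0.197). In Strain wounds Pmel (4.35 ± 2.24 CPM per kb, SD, n = 4) and Tyrp1 (4.04 ± 2.81) had the highest means after Mitf, and Dct (3.16 ± 1.69) and Mlana (3.16 ± 1.16) the next, with wide overlap.

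**Figure D1:**
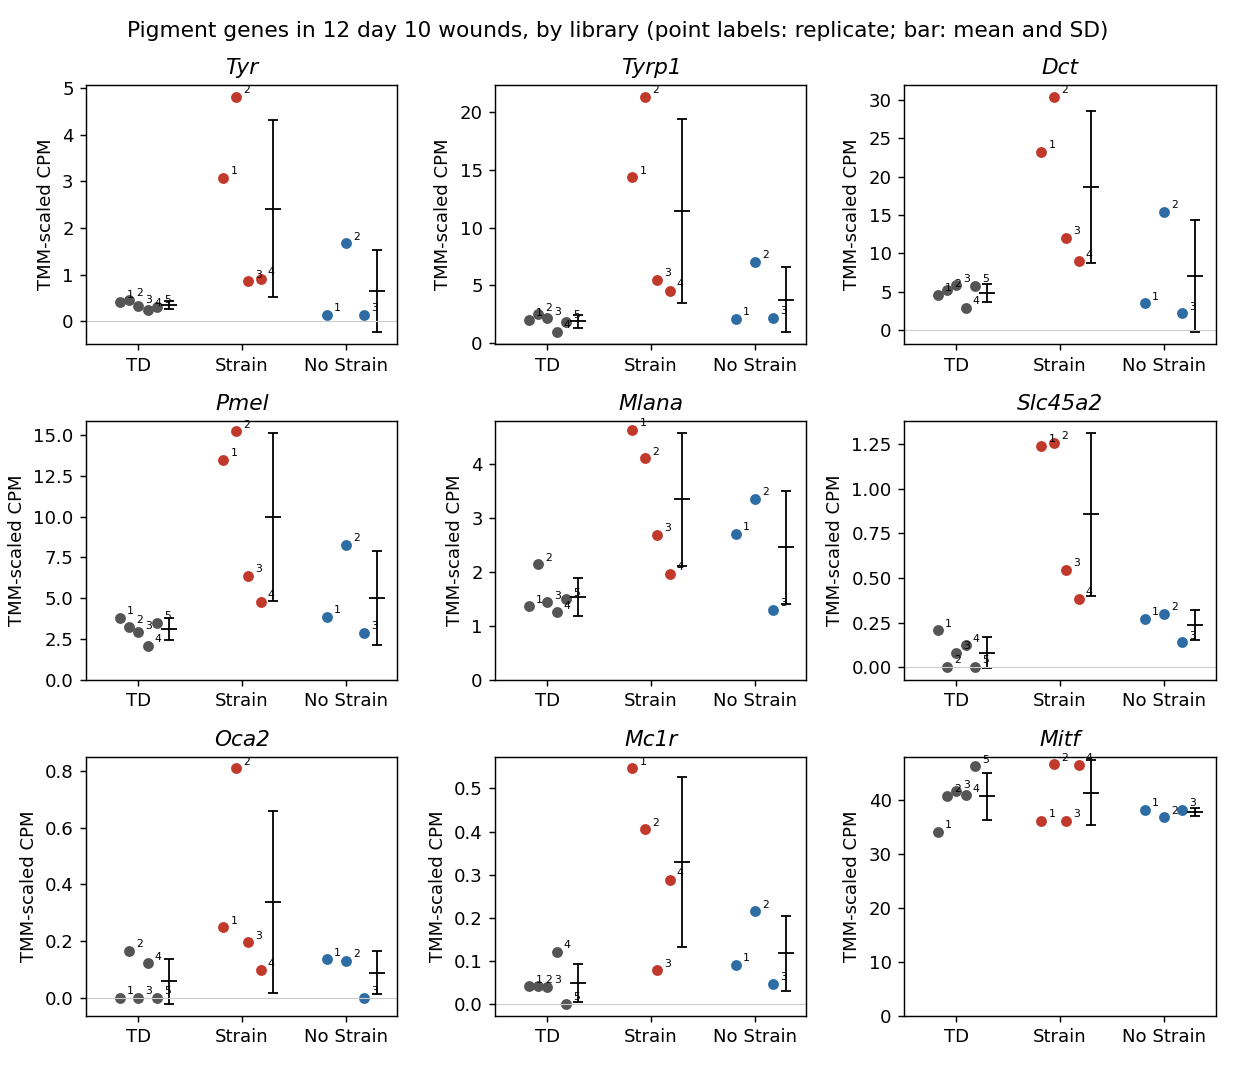
Scaled CPM (vertical axis, with its own range in each panel) of the 9 pigment genes in each library of the TD, Strain and No Strain groups. Points are libraries numbered by replicate and bars are the mean and SD. Strain replicates 1 and 2 and No Strain replicate 2 stand above the TD libraries in Tyr, Tyrp1, Dct and Pmel, whereas Mitf runs from 34.1 to 46.6 CPM with the groups mixed.

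The first comparison, of Strain with TD, asked how wounds under the straining patch differed from wounds under film. Of the 7 pigment genes tested, 6 were higher in Strain wounds and none lower at an adjusted p under 0.05, and the 7th, Mitf, was level. Over all genes tested in this comparison 12.6% passed in either direction, 6.2% higher and 6.41% lower. The median log2 fold change of the 7 genes was 1.94, against 0.02 over all genes tested. The enzyme and transporter genes had folds of 3.83 to 9.80, and those of the structural melanosome genes Pmel and Mlana were smaller, at 3.20 for Pmel and the lowest for Mlana. The filter on low counts asked for about 0.429 CPM in 3 libraries. Tyr and Slc45a2 met it only through their Strain libraries, so they could hardly have entered the test without being high there, and the counts and median that include them support nothing about the set. Of the other 5 tested genes, Dct, Pmel, Tyrp1, Mlana and Mitf, 4 were called.

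Tyr encodes tyrosinase, which carries out the rate-limiting step of melanin synthesis. Its level was 0.411, 0.452, 0.319, 0.242 and 0.307 CPM in the TD libraries. In the Strain libraries it was 3.08, 4.82, 0.857 and 0.911 CPM. Every Strain library lay above every TD library, and Strain replicates 1 and 2 were several times the other pair. The log2 fold change was 2.78 (SE 0.732, adjusted p = 0.0322, edgeR quasi-likelihood test with Benjamini-Hochberg adjustment over all genes tested, as for every adjusted p below unless another tool is named). These are low levels, from 6 to 11 counts per TD library and 19 to 107 per Strain library.

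Tyrp1, the gene of tyrosinase-related protein 1, stood at 2.02, 2.51, 2.15, 1.01 and 1.84 CPM in TD wounds. It stood at 14.4, 21.3, 5.49 and 4.55 CPM in Strain wounds. The groups did not overlap, and again replicates 1 and 2 were the highest of the Strain group. The log2 fold change was 2.58 (SE 0.520, edgeR adjusted p = 0.0132).

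Dct, the gene of dopachrome tautomerase and an early marker of the lineage that melanoblasts already express, was measured at 4.61, 5.18, 5.86, 2.95 and 5.74 CPM in TD wounds. In Strain wounds it was measured at 23.2, 30.4, 12.0 and 8.96 CPM, all above the TD range. The log2 fold change was 1.94 (SE 0.528, edgeR adjusted p = 0.0359).

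Pmel encodes the protein that forms the fibrils on which melanin is laid down. It was at 3.78, 3.25, 2.91, 2.10 and 3.51 CPM in TD libraries and at 13.5, 15.2, 6.39 and 4.79 CPM in Strain libraries, again without overlap. Its log2 fold change was 1.68 (SE 0.386, edgeR adjusted p = 0.0204). Mlana, which encodes a melanosomal membrane protein also called MART-1, differed least among the genes that passed. It measured 1.36, 2.14, 1.43, 1.25 and 1.49 CPM under film and 4.62, 4.10, 2.69 and 1.97 CPM under the straining patch. Here the lowest Strain library fell below TD replicate 2, so the groups overlapped, and the log2 fold change was 1.12 (SE 0.309, edgeR adjusted p = 0.0366).

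Slc45a2 encodes a transporter that helps keep the melanosome at a pH at which tyrosinase works. Its counts were 5, 0, 2, 3 and 0 in TD libraries and 25, 28, 14 and 8 in Strain libraries. The groups did not overlap, with a log2 fold change of 3.29 (SE 0.640, edgeR adjusted p = 0.0115). Among the 5 genes that did not depend on the Strain libraries to be tested, 3 separated the TD and Strain libraries completely (Dct, Pmel and Tyrp1), where 14.6% of all genes tested did so.

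Oca2 and Mc1r were too low for the test and are given as counts. Oca2, whose product moves chloride across the melanosome membrane, had 0, 4, 0, 3 and 0 counts in TD libraries, 5, 18, 5 and 2 in Strain libraries and 3, 3 and 0 in No Strain libraries. Mc1r, which switches melanocytes toward black eumelanin when its ligand binds, had 1, 1, 1, 3 and 0 counts in TD, 11, 9, 2 and 6 in Strain and 2, 5 and 1 in No Strain libraries. Both were highest in the Strain group with overlap. Summed per group, Oca2 came to 0.0586 CPM of all counts in TD (exact Poisson 95% interval 0.0236 to 0.121) and 0.338 in Strain (0.228 to 0.483), and Mc1r to 0.0502 (0.0184 to 0.109) and 0.316 (0.210 to 0.456). These intervals cover counting error only and not the spread between wounds. In the same fit without the filter on low counts, Mc1r had a log2 fold change of 2.58 (SE 0.705, edgeR adjusted p = 0.0491) and Oca2 one of 2.44 (SE 0.884, edgeR adjusted p = 0.144). That fit no longer called Dct (edgeR adjusted p = 0.105) or Tyr (0.0730) in Strain against TD.

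Mitf did not follow its target genes. It was at 34.1, 40.8, 41.6, 40.9 and 46.3 CPM in TD, at 36.1, 46.6, 36.1 and 46.6 CPM in Strain and at 38.3, 36.9 and 38.2 CPM in No Strain libraries. The groups overlapped throughout, and the log2 fold change of Strain against TD was 0.02, with a 95% interval from -0.18 to 0.22. Mitf has several promoters and is also transcribed in mast cells, macrophages and other cells, and these gene-level counts do not separate its melanocyte isoform from the rest. Mast cell markers summed to between 273 and 535 CPM in TD, 309 and 463 in Strain and 332 and 428 in No Strain libraries, and macrophage markers to between 2222 and 4946, 4208 and 7251, and 4772 and 7385 CPM in the same order. Lyz2 alone averaged 2081, 3312 and 3513 CPM in that order and so weighs heavily in the macrophage sums. In Strain against TD 1 of the 10 macrophage markers was called higher and none lower, beside 6.2% and 6.41% of all genes tested. The part of mast cells and macrophages in the level of Mitf was not tested.

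**Figure D2:**
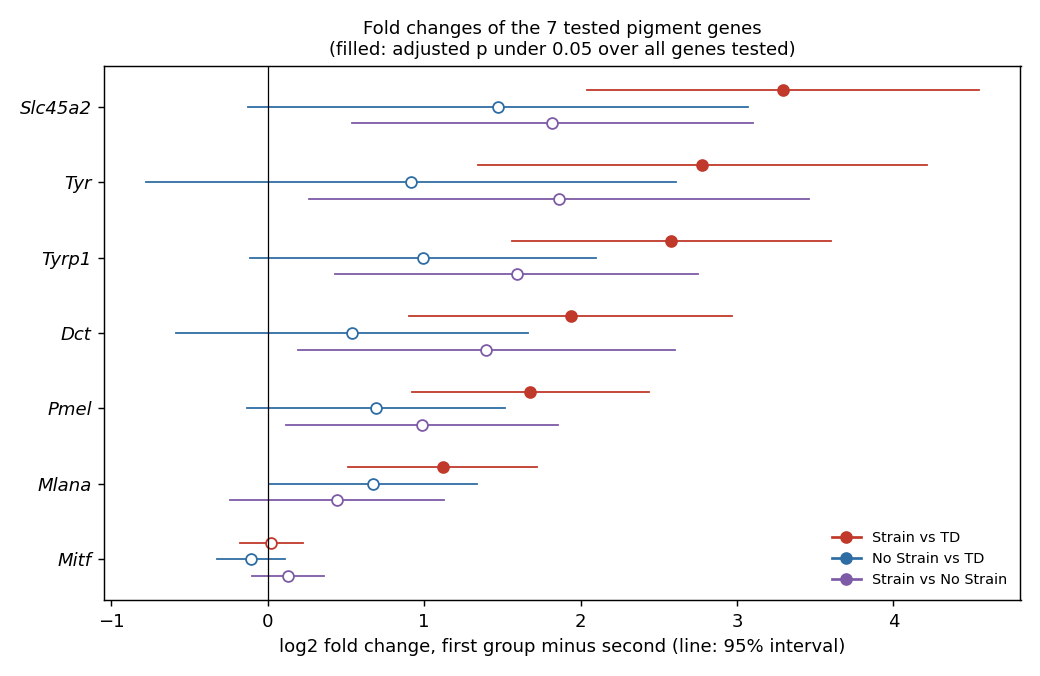
Log2 fold change (horizontal axis) of the 7 tested pigment genes in 3 pairwise comparisons, with lines for the 95% interval and filled points where the edgeR adjusted p was under 0.05. The 6 filled points all belong to Strain against TD, and the estimates for Mitf lie at zero within their intervals.

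How far each call rests on single libraries differed by gene. Tyrp1 passed without any 1 of the 9 TD and Strain libraries. Slc45a2 passed without each TD library and without Strain replicate 4, and without Strain replicate 1, 2 or 3 it no longer met the filter on low counts. The Pmel call was lost without TD replicate 4 (edgeR adjusted p = 0.0510) or Strain replicate 2 (0.0707). Dct and Tyr lost theirs without any of the 5 TD libraries or Strain replicates 1 and 2, with edgeR adjusted p from 0.0568 to 0.119 for Dct and 0.0578 to 0.114 for Tyr. Mlana lost its call without TD replicate 1, 3, 4 or 5 or Strain replicate 1 or 2 (edgeR adjusted p from 0.0645 to 0.112). The number of the tested genes called was 1 without Strain replicate 2, 2 without Strain replicate 1 or TD replicate 4, and 3 without TD replicate 1, 3 or 5. Across all of these fits the 6 fold changes stayed positive, the lowest per gene being 0.93 for Mlana, 1.38 for Pmel and 1.58 for Dct on the log2 scale.

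Other measures moved with the groups. The sample titles carry a letter, L or R, whose meaning the labels do not give. It was L in TD replicate 1, in Strain replicates 1, 2 and 4 and in No Strain replicates 2 and 3. With that letter in the edgeR fit only Slc45a2 was called in Strain against TD, at a log2 fold change of 2.91 (adjusted p = 0.0454). Slc45a2 met the filter on low counts only through its Strain libraries, so this call supports nothing about the set. Dct, Pmel, Tyrp1 and Mlana lost their calls (edgeR adjusted p from 0.0739 to 0.172). The Tyr log2 fold change was 1.86 (adjusted p = 0.196). Title numbers were 1 to 6 in TD and 7 to 15 under the patches, so anything that follows their order cannot be told apart from the patch. A list of 20 skeletal muscle genes summed to between 7707 and 19240 CPM in TD, 3652 and 6914 in Strain and 5342 and 11400 in No Strain libraries. Of its 19 tested genes, 15 were lower in Strain against TD, beside 6.41% of all genes tested. Only 3 of the 19 were lower in No Strain against TD, beside 8.4% of all genes tested. With the list's mean log2 CPM in the fit, none of the 7 pigment genes and 1 gene of all tested was called in Strain against TD. The Dct and Tyr fold changes were then 0.36 (SE 0.958) and 0.30 (SE 1.42) on the log2 scale, and those of Tyrp1 and Slc45a2 were 1.28 (SE 1.02) and 2.72 (SE 1.36). In whole tissue, a difference in the number of pigment cells and a difference in pigment RNA per cell cannot be told apart.

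Wounds under the patch without strain gave a split picture. In No Strain against TD, 0 of the 7 tested pigment genes passed, where 17.8% of all genes tested did (9.35% higher, 8.4% lower), and 0 reached an unadjusted p under 0.05 in edgeR. DESeq2 and limma-voom also called 0. None of the 7 kept the libraries of the groups apart, where 26.7% of all genes tested did. Dct was at 3.51, 15.4 and 2.18 CPM in No Strain replicates 1, 2 and 3. Tyr was at 0.135, 1.67 and 0.139 CPM, Tyrp1 at 2.12, 7.04 and 2.18 CPM and Pmel at 3.87, 8.28 and 2.88 CPM in the same order. Replicate 2 lay inside or near the Strain range for these genes, and replicates 1 and 3 lay inside or near the TD range, with Dct in replicate 3 and Tyr in both below every TD library. Mlana was less split, at 2.70, 3.35 and 1.30 CPM, and Slc45a2 had 6, 7 and 3 counts. The fitted log2 fold changes were 0.54 for Dct (SE 0.574, edgeR adjusted p = 0.552), 0.92 for Tyr (SE 0.865, adjusted p = 0.496), 0.99 for Tyrp1 (SE 0.564, adjusted p = 0.247) and 0.69 for Pmel (SE 0.420, adjusted p = 0.279). Mlana had the smallest adjusted p of the 7, 0.184, at 0.68 (SE 0.337), with 1.47 (SE 0.815) for Slc45a2. Without replicate 2 the estimates for Dct and Tyr turned negative, to -0.78 and -1.31. The gene set thus showed no common level among the 3 No Strain wounds.

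Since a patch was worn in both groups, Strain against No Strain bears on the strain itself. None of the 7 pigment genes was called, and neither was any of the 18618 genes tested (0%). At an unadjusted p under 0.05 in edgeR there were 5 of the 7 genes and 1045 of all genes, and DESeq2 called 0 of the 7 and 33 genes in all. Tyr and Slc45a2 are among these 5 and met the filter on low counts only through their Strain libraries. The count that includes them, and their own intervals below, therefore support nothing about the set. The log2 fold changes were 1.40 for Dct with a 95% interval from 0.19 to 2.60, 1.86 for Tyr (0.26 to 3.46), 1.59 for Tyrp1 (0.43 to 2.75), 0.99 for Pmel (0.12 to 1.86) and 1.82 for Slc45a2 (0.54 to 3.10), each with an edgeR adjusted p of 0.872. Mlana at 0.44 (-0.24 to 1.13) and Mitf at 0.13 (-0.10 to 0.36) had intervals that included zero. None of the 5 genes tested without depending on the Strain libraries kept the groups apart, where 5.62% of all genes tested did so. Slc45a2 did, but it was tested only because it was high in Strain. A difference between the patches was thus not shown, and the intervals also allow large ones.

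When the mean of both patch groups was set against TD, 4 of the 7 genes were higher and none lower, where 24.4% of all genes tested passed, 12.4% higher and 12.1% lower. None of the 7 separated the patch libraries from the TD libraries completely, where 11% of all genes tested did. They were Tyrp1 (log2 fold change 1.79, SE 0.478, edgeR adjusted p = 0.0205), Slc45a2 (2.38, SE 0.649, adjusted p = 0.0215), Pmel (1.18, SE 0.351, adjusted p = 0.0311) and Mlana (0.90, SE 0.279, adjusted p = 0.0366). Dct at 1.24 (SE 0.479, adjusted p = 0.0812) and Tyr at 1.85 (SE 0.702, adjusted p = 0.0761) did not pass. With the title letter or the muscle list in the fit 0 of the 7 passed, and leaving out TD replicate 4 or Strain replicate 1 or 2 left 1 called. Without TD replicate 3 or 5 or No Strain replicate 2 there were 2. Slc45a2 again was tested only through its Strain libraries. These comparisons share the TD libraries and are not independent of each other.

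The tested pigment genes other than Mitf had similar profiles from wound to wound. Over the 12 libraries, Pearson r of log2 CPM between pairs of Dct, Pmel, Tyr, Tyrp1 and Mlana ran from 0.813 (Tyr with Mlana) to 0.979 (Pmel with Tyrp1). Slc45a2 gave r of 0.730 to 0.839 with these 5 genes. Mitf gave r between -0.165 and 0.113 with the other 6. These are descriptions over libraries that share the group differences, and they carry no test. The genes whose profiles came closest to a pigment gene were Foxi3 for Dct (r = 0.955) and Tyr (0.922), Tcrg-V6 for Pmel (0.956), Prkdc for Tyrp1 (0.963) and Ppip5k2 for Mlana (0.937). Kcnh1, which encodes a potassium channel, was among the 5 closest genes of all 5, with r from 0.908 to 0.953. These r carry no test either, and nothing about function follows from them.

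The same values can be read relative to Mlana within each library. Mlana was chosen as the reference after its values were seen and has the smallest fold change of the called genes, so higher ratios in Strain restate the fold changes above and support nothing further. On this scale Tyrp1 was at 0.54, 0.22, 0.56, -0.29 and 0.29 log2 units in TD and at 1.62, 2.36, 1.01 and 1.18 in Strain libraries. Dct relative to Mlana was at 1.70, 1.24, 1.97, 1.18 and 1.89 in TD and at 2.31, 2.87, 2.13 and 2.14 in Strain libraries. Both ratios were higher in every Strain library than in any TD library. Tyr relative to Mlana was on average -1.90 ± 0.212 log2 units in TD (SD, n = 5) and -0.73 ± 0.758 in Strain (SD, n = 4), with overlap. Pmel kept closest to Mlana, at 0.98 ± 0.343 in TD and 1.47 ± 0.302 in Strain, also with overlap. A ratio does not show that any gene stayed constant. Since 2 counts were added to each value before taking logs, they understate the change of the low genes Tyr and Slc45a2.

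**Figure D3:**
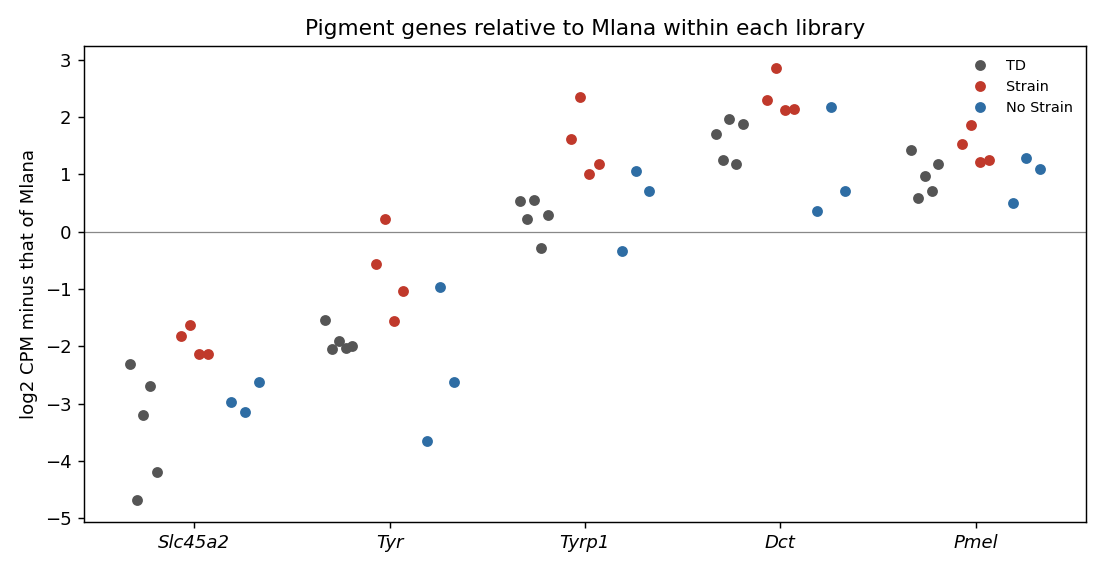
Log2 CPM of 5 pigment genes minus that of Mlana in the same library (vertical axis), with 1 point per library coloured by group. For Tyrp1 and Dct the Strain points all lie above the TD points, while for Tyr and Pmel they overlap.

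Other genes of the melanocyte were read from lists by role. The lineage list holds 15 regulators and receptors that specify or maintain melanocytes. In Strain against TD none of the 15 was higher and 1 was lower, close to the 6.41% of all genes tested that were lower. It was Sox9 (log2 fold change -0.81, SE 0.206, edgeR adjusted p = 0.0285), a factor that is also abundant in hair follicle stem cells. In No Strain against TD, where 8.4% of all genes tested were lower, 3 of the 15 were: Sox9 (-0.99, adjusted p = 0.0150), Pax3 (-1.85, adjusted p = 0.0387) and Sox10 (-0.86, adjusted p = 0.0397). The Sox10 call held in 1 and the Pax3 call in 2 of the 8 fits that left out a TD or No Strain library. The Sox9 call in Strain was lost without TD replicate 1, 3 or 4 or Strain replicate 2 or 4. Sox10 and Pax3 act upstream of Mitf. Sox10 measured 7.78, 7.44, 6.22, 7.79 and 7.41 CPM in TD, 4.42, 4.46, 6.85 and 4.27 CPM in Strain and 2.88, 6.22 and 2.97 CPM in No Strain libraries. Both Sox10 and Dct were lower in No Strain replicates 1 and 3 than in replicate 2, but Sox10 was below the TD range in the Strain wounds with the most Dct. Sox10 is also a Schwann cell gene, and a list of 12 Schwann cell markers that includes it summed to between 384 and 564 CPM in TD, 322 and 428 in Strain and 302 and 388 in No Strain libraries. The receptors of the lineage were not called: Kit, which mast cells also carry, had a log2 fold change of 0.39 (adjusted p = 0.0910) and Ednrb one of -0.87 (adjusted p = 0.140) in Strain against TD.

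Of 12 genes for melanosome channels, transporters and coat proteins, 11 were tested. In Strain against TD 1 was higher and none lower, beside 6.2% and 6.41% of all genes tested, so the count says little about the list. That gene was Slc7a11, which encodes the cystine importer that favours the yellow pigment pheomelanin and serves glutathione synthesis in many cells. It rose from 16.3 CPM in TD to 83.8 in Strain and 100 in No Strain libraries on average, with log2 fold changes of 2.36 (SE 0.354, edgeR adjusted p = 0.00539) and 2.62 (SE 0.373, adjusted p = 0.00262), and both calls held without any single library. Its level was 120, 124, 31.8 and 59.5 CPM in Strain replicates 1 to 4 and 110, 106 and 85.2 CPM in the No Strain libraries. It was thus highest in the Strain replicates where the pigment genes were highest, but it was also high in No Strain replicates 1 and 3, where Dct and Tyr were low. In No Strain against TD 2 of the 11 were higher and none lower, beside 9.35% and 8.4% of all genes tested. Besides Slc7a11 it was Cd63, a protein of melanosomes and other late endosomal organelles (0.41, SE 0.109, adjusted p = 0.0251). Trpm1, a channel gene under Mitf control, was at 3.58 and 4.50 CPM in Strain replicates 1 and 2, where the pigment genes were highest, against 0.698 to 1.32 CPM in TD. The lowest Strain library, at 0.863 CPM, and the highest No Strain library, at 1.29 CPM, lay inside the TD range. Trpm1 did not pass in Strain against TD (1.18, SE 0.419, adjusted p = 0.0851). Gpr143, a melanosome receptor below the filter, had 3 counts over the 5 TD libraries, 26 over the 4 Strain libraries and 10 over the 3 No Strain libraries. Kit, Ednrb and Gpr143 were named for their roles after their values had been seen.

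Other cells use the machinery that builds and moves melanosomes for their own lysosome-related organelles. Of 22 such genes, 1 was higher in Strain against TD, where 6.2% of all genes tested were, the BLOC-1 subunit gene Bloc1s2 (0.23, SE 0.0625, edgeR adjusted p = 0.0330). In No Strain against TD 3 were higher, where 9.35% of all genes tested were, Bloc1s2 (0.29), Bloc1s6 (0.20) and Lyst (0.31), with adjusted p of 0.0148, 0.0265 and 0.0326, and none was lower in either comparison. Leaving out single libraries, the Bloc1s2 call in Strain held in 2 of 9 fits, and the Bloc1s6 and Lyst calls in No Strain in 2 and 1 of 8. The median log2 fold changes of the list were 0.08 and 0.06.

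Signals that act on melanocytes gave a mixed result. Of 18 genes 16 were tested, and in Strain against TD 1 was higher and 3 were lower, beside 6.2% and 6.41% of all genes tested. Edn2, which encodes an endothelin, was at 0.247, 0.123, 0.159, 0.0404 and 0.0877 CPM in TD against 1.69, 1.08, 0.311 and 0.479 CPM in Strain libraries (log2 fold change 2.69, SE 0.561, edgeR adjusted p = 0.0141). The highest 2 libraries were again Strain replicates 1 and 2, at low levels. Edn2 met the filter on low counts only through Strain libraries and Edn3 only through TD libraries, the groups where each was high, so their calls are descriptions of genes that had to differ to be tested. Edn3, the endothelin that drives expansion of melanoblasts, was lower in both patch groups, by log2 fold changes of -1.50 (SE 0.373, adjusted p = 0.0266) in Strain and -2.21 (SE 0.449, adjusted p = 0.00904) in No Strain. Wnt10b, a Wnt ligand of the growing follicle, was also lower in both, at -1.15 (SE 0.274, adjusted p = 0.0230) and -1.87 (SE 0.317, adjusted p = 0.00448), as was Bmp4 at -1.35 (adjusted p = 0.0216) and -1.51 (adjusted p = 0.0162). In No Strain against TD 5 were lower and none higher, beside 8.4% and 9.35% of all genes tested, the other two being Wnt3a (adjusted p = 0.0294) and Fgf2 (-0.87, adjusted p = 0.0311). Kitl, the ligand of Kit, gave a log2 fold change of 0.09 (95% interval from -0.07 to 0.24) in Strain against TD. The Edn3 call in Strain was lost without TD replicate 3 or 4 or Strain replicate 2, the Bmp4 call without Strain replicate 1 or 2, and the Wnt10b call without Strain replicate 2.

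**Figure D4:**
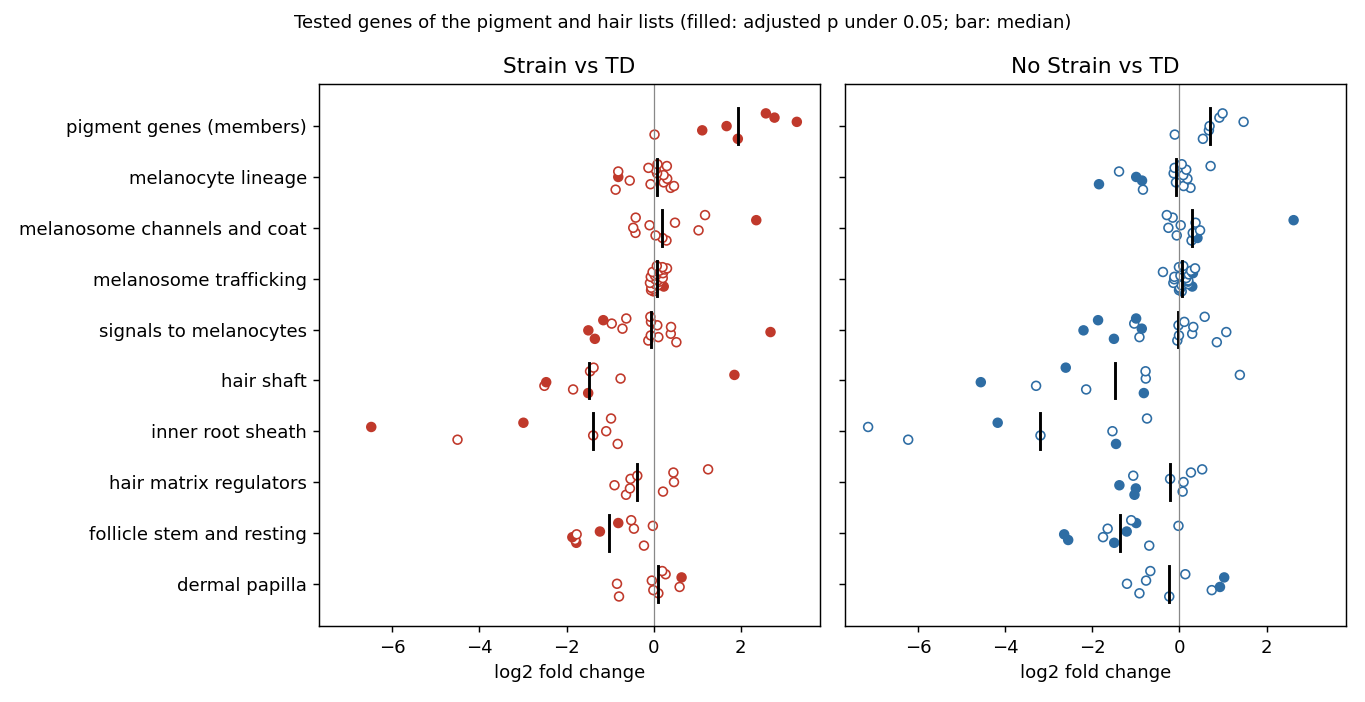
Log2 fold changes (horizontal axis) of every tested gene in the pigment and hair lists, for Strain against TD (left) and No Strain against TD (right). Points are genes, filled where the edgeR adjusted p was under 0.05, and bars are list medians over the genes that passed the filter on low counts. In Strain against TD the filled pigment genes lie to the right of zero, and the filled hair genes lie mostly to the left.

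Since follicular pigment accompanies hair growth, the pigment genes were set beside genes of the hair. Of 17 measured hair shaft genes 8 were tested. In Strain against TD 2 were lower and 1 higher, beside 6.41% and 6.2% of all genes tested. Crym (-1.50, edgeR adjusted p = 0.00539) and the hair keratin gene Krt36 (-2.47, adjusted p = 0.0255) were lower and Krt84 was higher (1.86, adjusted p = 0.0457). Under the patch without strain 3 shaft genes were lower than in TD and none higher, beside 8.4% and 9.35% of all genes tested. These were Krt36 (-4.57, edgeR adjusted p = 0.00690), S100a3 (-2.61, adjusted p = 0.0245) and Crym (-0.82, adjusted p = 0.0361). The summed level of the list was between 7.17 and 22.5 CPM in TD, 3.65 and 7.24 CPM in Strain and 4.09 and 6.78 CPM in No Strain libraries. Of 10 inner root sheath genes 7 were tested, with 2 lower in Strain against TD, Krt71 and Krt73. Against TD 2 were also lower in No Strain libraries, Gata3 (-1.46, edgeR adjusted p = 0.0132) and Krt73 (-4.18, adjusted p = 0.0280). Krt36, S100a3, Krt71 and Krt73 met the filter on low counts only through TD libraries, where they were high, so they had to differ to be tested. Leaving out single TD or Strain libraries, the Krt84 and Krt73 calls in Strain each held in 1 of 9 fits and the Krt71 call in 2 of 6. The Crym call in Strain held in all 9. Without single TD or No Strain libraries, the Krt36 and Gata3 calls in No Strain held in 8 of 8 fits. The Krt73, S100a3 and Crym calls there held in 4 of 8, 3 of 5 and 2 of 8. TD replicate 2 was the highest library in both lists, at 22.5 and 247 CPM. Of 10 genes of follicle stem cells and the resting follicle, 4 were lower and none higher in Strain against TD. Fgf18 (-1.77, edgeR adjusted p = 0.00795), Sox9 and Lgr5 (-1.23, adjusted p = 0.0383) were the lowest in p. Of the same 10 genes 5 were lower in No Strain against TD, beside 8.4% of all genes tested. The Fgf18 call in Strain held in all 9 fits without a single library, and the Lgr5 call in 2 of 9. Among 9 tested regulators of the hair matrix none passed in Strain against TD. There 3 had an unadjusted p under 0.05 in edgeR, beside 5487 of all 18618 genes tested. In No Strain against TD 3 of the 9 were lower and none higher, beside 8.4% and 9.35% of all genes tested. These were Foxq1, Hoxc13 and Dlx3. Leaving out single TD or No Strain libraries, their calls held in 4, 2 and 2 of 8 fits. Of 10 dermal papilla genes 9 were tested. In Strain against TD only Prdm1 was called, as higher (0.64, edgeR adjusted p = 0.0313). In No Strain Prdm1 (1.03, adjusted p = 0.00511) and Fgf7 (0.93, adjusted p = 0.0358) were higher, beside 9.35% of all genes tested. Without single libraries the Prdm1 calls held in 2 of 9 and 8 of 8 fits, and Fgf7 in 2 of 8. The list medians were 0.11 and -0.24.

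Counts summed over the 58 genes of the keratin-associated protein family, which harden the shaft, were 13, 359, 27, 26 and 7 in TD libraries, 7, 1, 21 and 8 in Strain libraries and 1, 6 and 2 in No Strain libraries. The share of counts gave an exact permutation p of 0.127 between Strain and TD (two-sided, 0.171 adjusted over 3 comparisons), which misses the threshold and does not show that the groups are alike. With the hair shaft list in place of this family the exact permutation p was 0.0476, and 0.0714 after adjustment. Between No Strain and TD the p was 0.0357, the smallest this exact test allows, and 0.107 after adjustment. Strain and No Strain could not reach 0.05 at these group sizes, the smallest p being 0.0571, and gave an exact permutation p of 0.171.

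Across the 12 libraries no correlation of a pigment gene with the hair shaft list passed the test. The list's mean log2 CPM was taken over its 8 tested genes. Of these, Krt35, Krt36 and S100a3 met the filter on low counts only through TD libraries, so the mean leans toward genes high in TD. Pearson r with this mean ran from -0.53 for Slc45a2 to -0.03 for Mitf. For Dct it was -0.18 (permutation p = 0.576) with Spearman's rho of -0.11 (permutation p = 0.734), and for Pmel -0.38 (permutation p = 0.220) with rho of -0.34 (permutation p = 0.277). After adjustment over the 7 genes the smallest Pearson p was 0.481. Leaving out TD replicate 2 and No Strain replicate 3, the libraries farthest from the median of the hair list, r was -0.46 for Dct and -0.75 for Mlana (permutation p = 0.0122, 0.0852 adjusted). With each library centred on its group mean, r was 0.17 for Dct, so that the weak negative relation did not hold within groups.

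**Figure D5:**
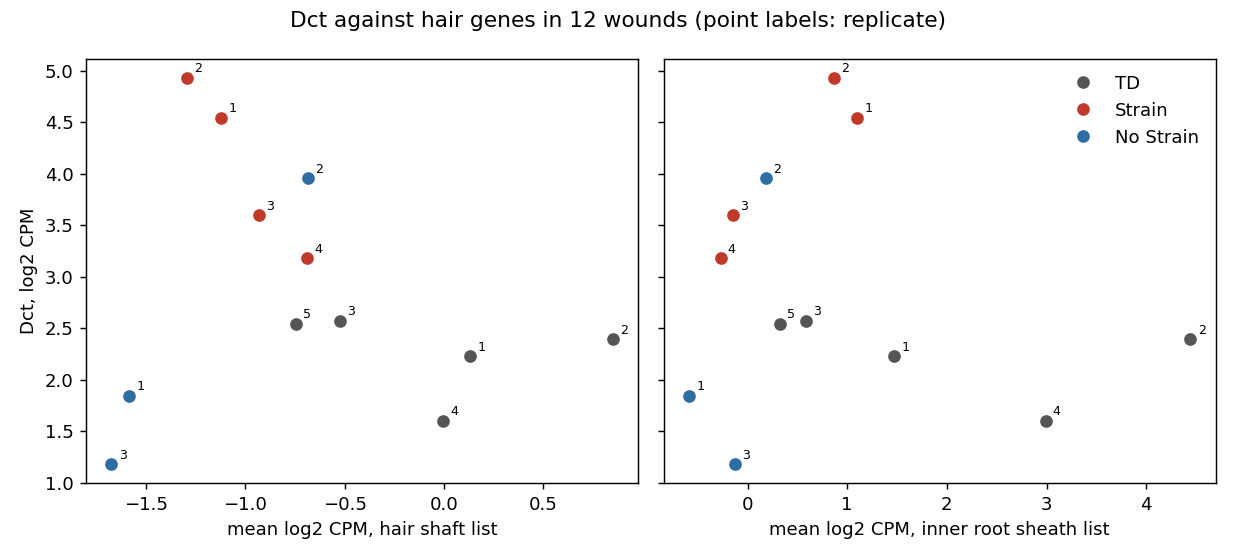
Log2 CPM of Dct (vertical axis) against the mean log2 CPM of the hair shaft list (left) and of the inner root sheath list (right) in the 12 libraries, coloured by group and numbered by replicate. Each mean is over the tested genes of its list. Krt35, Krt36 and S100a3 of the shaft and Krt25, Krt71 and Krt73 of the sheath met the filter on low counts only through TD libraries. The 4 Strain libraries lie above the 5 TD libraries in Dct, TD replicate 2 is the highest in both hair lists, and the groups overlap along the hair axes.

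Keratinocytes, which receive melanin from melanocytes in the epidermis, were checked as another possible difference in tissue make-up. Markers of basal keratinocytes summed to between 5989 and 7748 CPM in TD, 4836 and 11360 in Strain and 4715 and 8637 in No Strain libraries. In Strain against TD 2 of the 8 markers were lower and none higher, with a median of -0.12, beside 6.41% and 6.2% of all genes tested. In No Strain against TD 4 of the 8 markers were lower and none higher, with a median of -0.34, beside 8.4% and 9.35%. Their part in the pigment gene differences was not tested.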

How the data were processed

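Poly(A) RNA from 12 wounds was counted per gene. The authors deposited whole-number counts for each Ensembl gene, not normalized, per the headers and values of the files. The submitters' processing notes name bcl2fastq 2.17, FastQC, cutadapt, STAR, featureCounts, DESeq2 and the build GRCm38, and the strand setting is not given in the sources used here. Groups came from the group label. GENCODE M21 gave symbols for 54079 of 54232 genes, and positions and exon lengths.

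Genes with enough counts (filterByExpr in edgeR 4.0.16, minimum count 10, minimum total 15) were kept, scaled by TMM and fitted over all 12 libraries with the robust quasi-likelihood test in R 4.3.3. P-values were adjusted by Benjamini-Hochberg over the 18618 genes tested, with a threshold of 0.05. Intervals of 95% are normal intervals from the SE. For log2 CPM the prior count was 2. Floors of 3 counts cover counting error only. The fit was tested on simulated data. The 19 pairs of libraries of a group all differed by more than counting noise (chi-square over its degrees of freedom at least 9.53).

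Alternatives were DESeq2 1.42.0 and its size factors, library totals, limma-voom 3.58.1, other filters, other samples in the fit, covariates and leaving out each library. Hair protein shares and correlations used permutation tests, the latter with 100000 resamples. Genes were picked for naming by a rule: the 9 pigment genes, up to 3 higher and 3 lower called genes per list and comparison by p, or 2 that did not pass, and the 5 closest profiles. Not every gene that the rule picked is named here, and some outside it are, such as Wnt3a, Fgf2 and Kitl. The genes and lists were chosen with earlier results of these data known. One hair keratin of the list was not analysed here.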

Additional observations from a re-analysis of the deposited data

Results flagged for a closer look

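Among 24 sets of 5 or 4 libraries examined for a library far from the rest, 4 held one, where about 1 in 20 sets, or 1.2 here, would by chance. Of these, the hair shaft, inner root sheath and keratin-associated protein sets all measure hair content and are not independent of each other. The 4 are therefore not separate events to set against 1.2. All 4 concern TD replicate 2. Its Mlana level was 2.136 CPM, with the next TD library at 1.491. The hair shaft list summed to 22.55 CPM there, against 10.41 in the next TD library, and the inner root sheath list to 246.7 CPM against 119.6. The keratin-associated protein genes took 0.001479% of counts, against 0.0001109% in the next. Without this library the log2 fold changes of Strain against TD were 1.95 for Dct and 2.88 for Tyr.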

How the results depend on the processing

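No paired analysis was possible because the sample titles give every library a number of its own and the groups share none. For Strain against TD the 6 calls became 1 with the title letter as a covariate, 0 with the muscle list, and 1 to 6 when single libraries were left out. The 1 call left with the letter was Slc45a2, which was tested only through its Strain libraries. DESeq2, limma-voom, other scalings, filters and fits gave 4 to 6. Tyr and Mlana lost their calls with limma-voom (adjusted p = 0.0562 and 0.0594), and Dct and Tyr lost theirs without the filter on low counts. For the mean of both patches the 4 calls became 2 without the filter on low counts, 0 with the title letter, 0 with the muscle list, and 1 to 5 without single libraries. The counts of 0 in the other comparisons did not change. The cause was not tested.

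Signs turned in a few estimates. In No Strain against TD the muscle list gave -0.59 for Dct, -0.0573 for Pmel and -0.77 for Tyr, and leaving out No Strain replicate 2 gave -0.78 for Dct and -1.31 for Tyr (up to 0.963 and 1.39 without others). For both patches the muscle list gave -0.11 for Dct and -0.24 for Tyr. Mitf, near zero throughout, gave -0.00709 with limma-voom and -0.11 with the muscle list in Strain against TD, and -0.0496 to 0.0823 without single libraries, turning negative without TD replicate 1 or Strain replicate 2 or 4. For both patches it gave -0.101 to 0.00639 without single libraries, positive without TD replicate 5. Correlations with hair genes turned to 0.172 (Dct), 0.0800 (Pmel), 0.295 (Tyr), 0.138 (Tyrp1) and 0.263 (Mlana) when centred on group means, to 0.0418 for Tyr without Strain replicate 2 (range over libraries -0.327 to 0.0418), and for Mitf to 0.0980 with library totals, 0.000254 with the inner root sheath list, 0.159 without TD replicate 1 (range -0.0982 to 0.159) and 0.0972 without Strain replicate 2. Tyr, Slc45a2, Oca2 and Mc1r had few counts, which limits their precision.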
